A study of Mus musculus with 8 samples.

Results

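The Hippo pathway genes described here are 10 kinases and upstream regulators that restrain the transcriptional co-activators YAP and TAZ, namely Stk3, Stk4, Sav1, Lats1, Lats2, Nf2, Wwc1, Amotl1, Amotl2 and Ptpn14. They were taken from the table by gene symbol, from a list drawn up for their role in the pathway with earlier results of these data known, and each symbol matched 1 gene of the 56748 in the deposited count table. All 10 passed the filter on low counts and belong to the 14279 genes tested. The question was whether the transcripts of genes that hold YAP/TAZ back moved with the stiffness of the substrate, and whether they did so when Yap and Taz had been deleted.

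RNA was sequenced from mouse primary hepatocytes kept for 24 h on a collagen-coated hydrogel with a stiffness of 1 kPa (soft) or 20 kPa (stiff). All mice were C57BL/6J animals carrying floxed alleles of both genes (Yap fl/fl; Taz fl/fl). The group called wild type (WT) received the control virus AAV8-TBG-Null, and the knockout group (KO, Yap/Taz HepKO) received AAV8-TBG-Cre, in which the hepatocyte promoter TBG drives the recombinase. There were 4 groups (WT soft, WT stiff, KO soft and KO stiff) of 2 libraries each. Virus was given at 7 to 8 weeks of age, and cells were isolated 10 days later. The series description names the mice as female. The growth protocol and the methods of the study name male mice, so the sources disagree and the sex is uncertain. The methods of the study also describe a ROSA26-LSL-tdTomato reporter in the Yap/Taz line, which the labels of these libraries do not name. No source used here says whether the 2 libraries of a group came from separate mice or from separate cultures of the same cells, so p-values measure the spread between these libraries, which may be technical.

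In the Hippo cascade, the kinases MST1 (encoded by Stk4) and MST2 (Stk3), bound to the scaffold Salvador (Sav1), activate the kinases LATS1 and LATS2. LATS phosphorylates YAP and TAZ, which are then kept in the cytoplasm or degraded. Merlin (Nf2) and KIBRA (Wwc1) act upstream and bring the kinases to the membrane, whereas the angiomotin-like proteins (Amotl1, Amotl2) and the tyrosine phosphatase PTPN14 bind YAP. In mouse liver, loss of several of these genes is known for organ overgrowth. Lats2 and Amotl2 are themselves known as target genes of YAP/TAZ, which bind DNA through TEAD factors.

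The stretches of promoter sequence below show where the core letters of the TEAD motif stand in the members that hold them. The sequences are from RefSeq on GRCm38.p6, whose table holds windows of 300 bases (250 before and 50 after the start) for 9 of the 10 genes, Stk3 being the other. Both strands were searched for GGAATG, which reads CATTCC on the other strand. The letters stood in 4 of the 11 windows of these genes, compared with 14.7% of all 32851 windows in the table. A match is a description of the letters and not a site of binding, and a window without it says nothing of the factor. Each stretch has 30 bases, written 5′ to 3′ on the gene's own strand, with the match in capitals.
Amotl2 (chr9:102717727-102717756, plus strand): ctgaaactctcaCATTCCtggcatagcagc
Ptpn14 (chr1:189728110-189728139, plus strand): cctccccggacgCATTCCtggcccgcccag
Lats2 (chr14:57746102-57746131, minus strand): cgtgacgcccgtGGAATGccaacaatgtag
Sav1 (chr12:69987091-69987120, minus strand): cggctttcccagCATTCCcagcggcgcggg

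Counted in bases from the RefSeq start, with negative values before it, the match lay at -65 in Amotl2, -146 in Ptpn14, -106 in Sav1 and 4 in Lats2. Those of Amotl2 and Lats2 fall inside an annotated exon of the GENCODE reference. Ptpn14 and Wwc1, the member with the largest fall and the member with the highest level, had no annotated exon in the 250 bases before the start, which are printed here to set a promoter with the letters beside one without them.
Ptpn14 (chr1:189728018-189728267, plus strand): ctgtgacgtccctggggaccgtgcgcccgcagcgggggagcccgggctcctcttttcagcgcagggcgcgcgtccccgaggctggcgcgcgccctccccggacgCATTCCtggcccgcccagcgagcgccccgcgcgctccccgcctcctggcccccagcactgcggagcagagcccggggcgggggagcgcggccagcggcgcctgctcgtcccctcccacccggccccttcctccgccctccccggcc
Wwc1 (chr11:35980528-35980777, minus strand): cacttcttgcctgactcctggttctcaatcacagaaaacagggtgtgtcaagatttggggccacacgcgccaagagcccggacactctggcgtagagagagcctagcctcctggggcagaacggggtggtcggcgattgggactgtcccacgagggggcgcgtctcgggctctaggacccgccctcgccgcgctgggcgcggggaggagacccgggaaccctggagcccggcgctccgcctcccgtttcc

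G and C made up 80.8% of the stretch of Ptpn14 and 67.2% of that of Wwc1. Among the 4 members whose transcripts moved with stiffness in WT cells, described next, 3 hold the letters in a window (Amotl2, Ptpn14 and Lats2) and Wwc1 does not. Sav1 holds them and did not pass the test. Of the members with the letters, Ptpn14 fell where Amotl2 and Lats2 rose, and the other window of Lats2 lacks them. A link between the letters and the response to stiffness was not tested.

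Library totals lay between 18324083 and 26442310 counts, and replicates differed by more than sampling noise in every group. Yap1 was lower in KO than in WT cells by a log2 fold change of -1.68 (standard error 0.064) when soft and -2.20 (standard error 0.065) when stiff, and Wwtr1, which encodes TAZ, was lower by log2 fold changes of -1.37 and -2.13. All 4 differences passed the test, and between 606 and 747 counts of Yap1 remained in each KO library, without their exons being told apart by counts per gene. Hepatocyte transcripts such as Alb were abundant in all libraries, and the summed level of 8 hepatocyte markers was 100319 to 106353 CPM (counts as a share of the library total, scaled by the TMM method) in WT and 69486 to 70205 CPM in KO libraries. Markers of other liver cells were present at low levels, and 10 of 10 endothelial, 8 of 10 stellate cell, 9 of 10 macrophage and 8 of 10 cholangiocyte markers had a count in every library. The 10 endothelial markers summed to 64.1 to 69.1 CPM in WT soft, 44.7 CPM in WT stiff, 84.3 to 85.3 CPM in KO soft and 86.2 to 88.3 CPM in KO stiff libraries. The stellate cell and macrophage sums were likewise lowest in WT stiff and higher in both KO groups than in WT soft libraries. In the same sequence of groups, the stellate cell sum was 36.1, 25.2 to 26.2, 50.1 to 51.2 and 52.0 to 55.7 CPM. The macrophage sum was 71.7 to 72.5, 51.4 to 55.0, 100.2 to 104.5 and 99.2 to 102.8 CPM. The 10 cholangiocyte markers summed to 573 to 627 CPM in WT and 343 to 369 CPM in KO libraries, most of it Spp1, and Cftr was at 0 in every library. In such bulk samples, fewer cells of a type and less RNA per cell cannot be told apart.

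In WT hepatocytes, 4 of the 10 genes changed between the soft and the stiff hydrogel. Amotl2, Wwc1 and Lats2 rose on the stiff hydrogel and Ptpn14 fell, by between 1.67-fold and 3.51-fold. Genes were called changed where the adjusted p was below 0.05 and the log2 fold change was beyond 0.5 in size (edgeR's quasi-likelihood test, Benjamini-Hochberg adjustment over all tested genes). Of all genes tested, 19.3% were called in this comparison, 10.0% as higher and 9.26% as lower. By the adjusted p alone, 6 of the 10 passed, compared with 41.0% of all genes. The median log2 fold change was 0.07 over the 10 genes and -0.01 over all genes tested, and the median of its size was 0.50 against 0.27. The libraries of the soft and stiff groups did not overlap for 9 of the 10 genes, which was the case for 68.9% of all genes tested.

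The MST kinases and their scaffold were not called. Gene positions here and in what follows are those of the deposited table, which differ from the GRCm38 positions of the promoters above. Stk4 (ENSMUSG00000018209, chromosome 2 from 163912242 to 163997444), which encodes MST1, was at 45.1 and 49.4 CPM in the WT soft libraries and 63.0 and 64.4 CPM in the WT stiff libraries. Both stiff libraries were above both soft ones, and the log2 difference of 0.43 (standard error 0.065, adjusted p = 3.04e-05) passed the adjusted p but stayed under the minimum fold. Without the second WT soft library it came to 0.50 and passed both. Tomm34, which had 622.5 counts per library on average, overlaps Stk4 on the opposite strand, and the strand setting of the counting is not given in the sources used here, so the count of Stk4 is uncertain.

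Stk3 (ENSMUSG00000022329, chromosome 15 from 34875642 to 35179067), which encodes MST2, was at 15.9 and 19.0 CPM on the soft and 18.5 and 19.0 CPM on the stiff hydrogel. These groups overlapped, with a log2 fold change of 0.09 (95% interval -0.13 to 0.32, adjusted p = 0.521). Sav1 (ENSMUSG00000021067, chromosome 12 from 70011786 to 70033776) had 18.4 and 19.1 CPM on the soft and 15.4 and 16.7 CPM on the stiff hydrogel. Its groups did not overlap, and the log2 fold change of -0.22 (95% interval -0.44 to -0.01) did not pass (adjusted p = 0.0859).

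Of the LATS kinases, the step that acts on YAP and TAZ directly, Lats2 was called and Lats1 was not. Lats2 (ENSMUSG00000021959, chromosome 14 from 57927119 to 57995845) was at 16.6 and 17.5 CPM in the WT soft and 28.2 and 28.9 CPM in the WT stiff libraries. Both stiff libraries were higher, and Lats2 rose 1.67-fold (log2 fold change 0.74, standard error 0.096, adjusted p = 5.46e-06). Of the 64-base windows of its longest transcript, 56.4% also occur in the transcript of Gm49361, a gene model annotated over Lats2 on the same strand that had no count in any library, so the level of Lats2 is uncertain. Lats1 (ENSMUSG00000040021, chromosome 10 from 7556978 to 7592224) had 58.9 and 62.9 CPM on the soft and 52.4 and 53.0 CPM on the stiff hydrogel. Lats1 was lower in both stiff libraries, with a log2 difference of -0.21 (standard error 0.059, adjusted p = 0.00824) that stayed under the minimum fold.

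Upstream of the kinases, Wwc1 rose and Nf2 did not pass. Wwc1 (ENSMUSG00000018849, chromosome 11 from 35729227 to 35871354), the KIBRA gene, was at 93.4 and 93.7 CPM in the WT soft libraries and at 157.8 and 163.8 CPM in the WT stiff libraries. This rise was 1.72-fold (log2 fold change 0.78, standard error 0.052, adjusted p = 7.33e-10) and the groups did not overlap. Nf2 (ENSMUSG00000009073, chromosome 11 from 4715845 to 4799536), the gene of the tumor suppressor Merlin, was at 28.8 and 29.2 CPM on the soft and 29.7 and 30.3 CPM on the stiff hydrogel. The 95% interval of its log2 fold change of 0.05 ran from -0.11 to 0.21 (adjusted p = 0.659).

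Among the genes whose proteins bind YAP, the transcripts of Amotl2 and Ptpn14 had the largest changes of all members, in opposite directions. Amotl2 (ENSMUSG00000032531, chromosome 9 from 102593871 to 102610617) rose from 32.7 and 34.2 CPM in the WT soft to 116.7 and 117.6 CPM in the WT stiff libraries. The rise was 3.51-fold (log2 fold change 1.81, standard error 0.078, adjusted p = 2.23e-12), far outside the spread between replicates. Ptpn14 (ENSMUSG00000026604, chromosome 1 from 189460465 to 189608892) fell from 52.4 and 55.0 CPM to 18.7 and 19.8 CPM. It was 2.79-fold lower on the stiff hydrogel (log2 fold change -1.48, standard error 0.064, adjusted p = 2.08e-12), and again the groups did not overlap. The summed endothelial, stellate and macrophage markers were also lower in WT stiff than in WT soft libraries, by log2 ratios of -0.57, -0.49 and -0.44. Not every marker fell with its sum, since Vwf, Col1a1, Acta2 and Ptprc had higher means in WT stiff libraries. The mean of Col1a1 was 3.95 CPM in WT soft and 6.76 CPM in WT stiff libraries. The macrophage sum was mostly Cd68 (46.2 and 35.2 CPM in the same groups). The part of these markers in the fall of Ptpn14 was not tested. Amotl1 (ENSMUSG00000013076, chromosome 9 from 14453262 to 14556352), a paralog of Amotl2, had only 31 to 66 counts in the WT libraries, which came to 2.54 and 2.78 CPM on the soft and 1.58 and 1.98 CPM on the stiff hydrogel. The groups did not overlap, but the difference of -0.57 (log2, 95% interval -1.16 to 0.02) did not pass (adjusted p = 0.114).

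**Figure D1:**
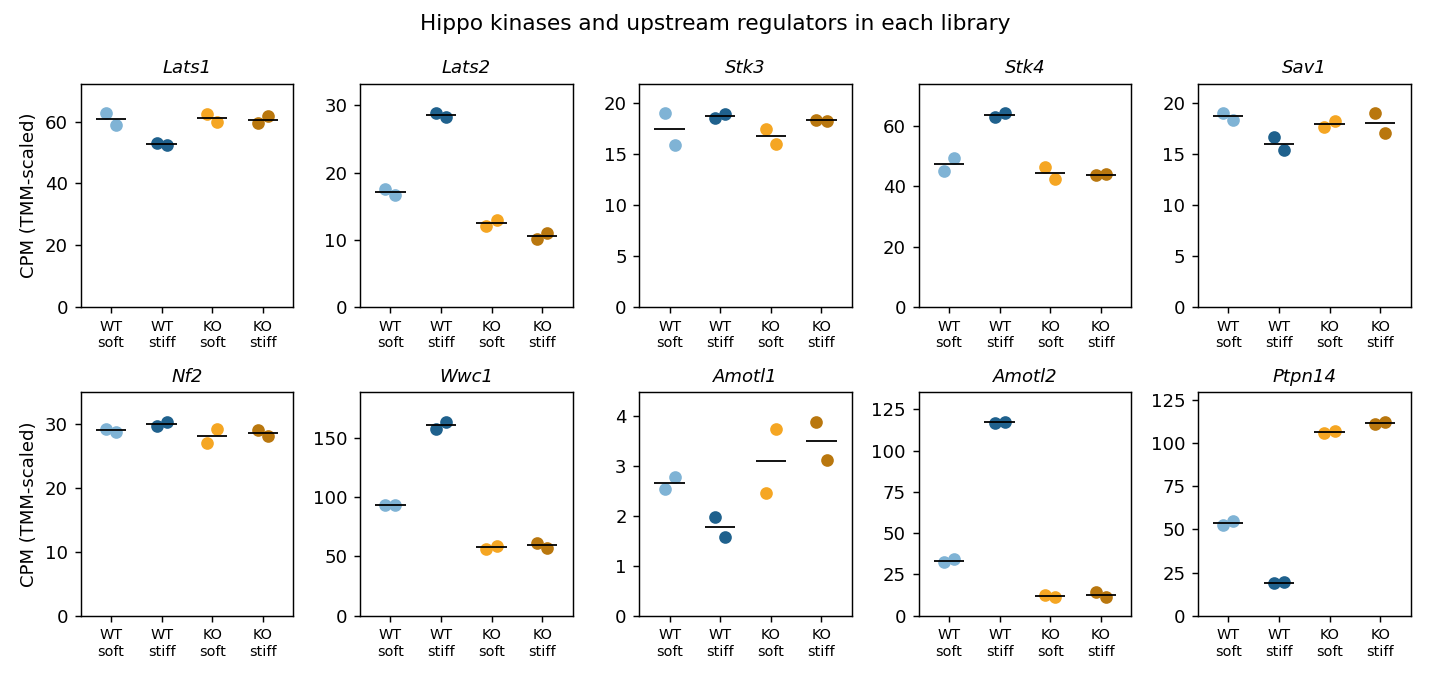
Level of each of the 10 genes in CPM (linear axis from 0, TMM-scaled) in the 4 groups, with 1 point per library and a line at the mean of the 2 libraries. Amotl2, Wwc1 and Lats2 were highest in the WT stiff libraries, where Ptpn14 was lowest, and the KO soft and KO stiff libraries lay close to each other.

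In Yap/Taz knockout hepatocytes, none of the 10 genes was called between the soft and the stiff hydrogel. By edgeR, 0 genes passed and 1 (Lats2) had an unadjusted p under 0.05, and DESeq2 also called 0. Only 0.0210% of all genes tested were called in this comparison, with 0.0140% higher and 0.00700% lower. The log2 fold changes ran from -0.24 to 0.20, with a median of 0.03 against 0.01 over all genes tested. Groups did not overlap for 3 of the 10 genes (Lats2, Stk3 and Ptpn14), compared with 38.1% of all genes.

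For the genes that had changed in WT cells, the KO values were narrow enough to bound the change. Amotl2 was at 11.2 and 12.8 CPM on the soft and 11.2 and 14.4 CPM on the stiff hydrogel, and its log2 fold change of 0.09 had a 95% interval from -0.14 to 0.31. Wwc1 was at 56.6 and 59.2 CPM on the soft and at 57.5 and 61.2 CPM on the stiff hydrogel (0.04, interval -0.08 to 0.15). Ptpn14 was at 106.0 and 106.8 CPM on the soft and 110.8 and 112.4 CPM on the stiff hydrogel (0.07, interval -0.04 to 0.18). For these 3 genes the interval did not reach the change seen in WT cells. Lats2 stood at 12.02 and 12.93 CPM on the soft and 10.07 and 10.97 CPM on the stiff hydrogel. The stiff libraries were the lower ones here, with a log2 fold change of -0.24 (95% interval -0.47 to -0.02) that did not pass the adjustment (edgeR, adjusted p = 0.639). The interval of Lats2 did not reach its WT change of 0.74 either.

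The other 6 genes had KO log2 fold changes between -0.02 (Stk4) and 0.20 (Amotl1). Lats1 was at 60.0 and 62.4 CPM on the soft and 59.6 and 61.7 CPM on the stiff hydrogel, and Stk4 at 42.4 and 46.4 CPM and at 43.7 and 44.0 CPM. Amotl1, again a gene of few counts (63 to 83 per KO library), had the widest interval, from -0.33 to 0.72, and a change of the minimum fold was not detectable at this depth.

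The stiffness effect itself was then compared between the genotypes by the interaction term, the KO log2 fold change minus the WT one. It was called for the same 4 genes that changed in WT cells, where 16.8% of all genes tested were called, 8.64% with a positive and 8.21% with a negative term. By the adjusted p alone 5 of the 10 passed, compared with 29.4% of all genes. The term was -1.72 for Amotl2 (standard error 0.133, adjusted p = 1.43e-08), -0.99 for Lats2 (0.144, adjusted p = 4.10e-05) and -0.75 for Wwc1 (0.076, adjusted p = 5.08e-07). For Ptpn14 it was 1.55 (standard error 0.082, adjusted p = 1.02e-10). Its sign was opposite to the WT change in each case. This follows from its definition, since the WT change is subtracted and the KO changes of these genes were smaller in size. Stk4 had a term of -0.45 (adjusted p = 0.00117) under the minimum fold, which reached -0.53 without the second WT soft and -0.52 without the second KO soft library, and then passed. The terms of Stk3 (0.03), Nf2 (-0.03), Lats1 (0.20), Sav1 (0.23) and Amotl1 (0.77, adjusted p = 0.140) did not pass.

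**Figure D2:**
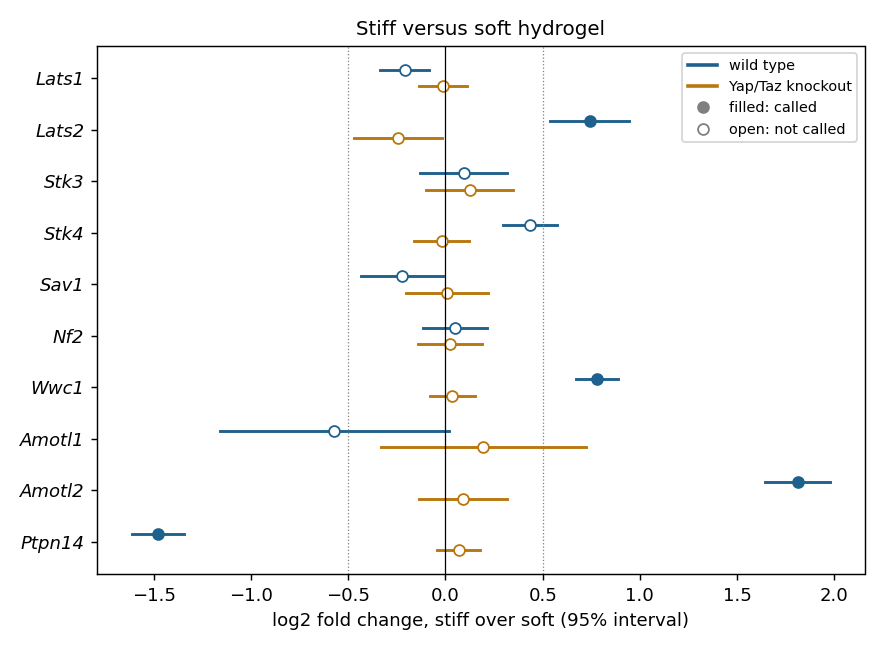
Log2 fold change of stiff over soft for each gene in WT and KO hepatocytes, with 95% intervals from edgeR, where filled points were called and dotted lines mark the minimum fold of 0.5. The 4 filled points are all WT values (Amotl2 1.81, Wwc1 0.78, Lats2 0.74 and Ptpn14 -1.48), and all KO points lie between -0.24 and 0.20.

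Deletion of Yap and Taz was also compared with WT on each hydrogel. These comparisons share libraries with those above, so their values are given side by side and not as a separate line of evidence. On the soft hydrogel, Amotl2 and Wwc1 were lower and Ptpn14 was higher in KO cells, 3 of the 10 genes, beside 6.67% of all genes (2.02% called higher and 4.65% called lower). By the adjusted p alone 4 of the 10 passed, against 18.4% of all genes. Amotl2 was 2.77-fold lower (log2 fold change -1.47, standard error 0.094, adjusted p = 2.02e-09) and Wwc1 1.62-fold lower (-0.69, standard error 0.054, adjusted p = 2.57e-08). Ptpn14 was 1.98-fold higher (0.99, standard error 0.054, adjusted p = 2.53e-10). Groups did not overlap for 5 of the 10 genes, compared with 56.2% of all genes. Lats2 had a log2 fold change of -0.46 (adjusted p = 0.00362) under the minimum fold, which came to -0.51 and passed without the second KO soft library. The log2 fold changes of the other 6 genes lay between -0.08 and 0.21, and none had an adjusted p under 0.05.

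On the stiff hydrogel, 6 of the 10 genes differed between the genotypes. Amotl2, Wwc1, Lats2 and Stk4 were lower and Ptpn14 and Amotl1 higher in KO cells, beside 28.7% of all genes (13.7% called higher and 15.0% called lower). By the adjusted p alone 7 of the 10 passed, against 51.1% of all genes. Amotl2 was 9.13-fold lower (log2 fold change -3.19, standard error 0.089, adjusted p = 1.78e-15). Lats2 (-1.44, standard error 0.102, adjusted p = 1.02e-09) and Wwc1 (-1.44, standard error 0.053, adjusted p = 1.03e-13) were lower by nearly the same factor, 2.72-fold and 2.71-fold. Ptpn14 was 5.80-fold higher (2.54, standard error 0.061, adjusted p = 2.74e-16). None of the 10 genes had overlapping groups here, which was also so for 74.5% of all genes.

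The calls of Stk4 and Amotl1 on the stiff hydrogel were less firm than these. Stk4 was lower, with a log2 difference of -0.54 (standard error 0.066, adjusted p = 1.77e-06), just past the minimum fold, and came to -0.48 with scaling by library size only. Amotl1 was at 3.11 and 3.89 CPM in the KO stiff against 1.58 and 1.98 CPM in the WT stiff libraries (log2 fold change 0.98, standard error 0.272, adjusted p = 0.00597). It lost its call without the second WT stiff library (0.81, adjusted p = 0.0612) and without the first KO stiff library (0.80, adjusted p = 0.0582). The summed endothelial, stellate and macrophage markers were higher in KO than in WT libraries, by log2 ratios of 0.35, 0.49 and 0.51 with the soft and 0.96, 1.07 and 0.92 with the stiff hydrogel. Single markers went against their sums, namely Cdh5, Vwf, Pdgfrb and Timd4 with the soft and Vwf and Col1a1 with the stiff hydrogel. The part of these markers in the higher levels of Ptpn14 and Amotl1 was not tested. Summed cholangiocyte markers went the other way, with log2 ratios of -0.68 and -0.84, and so did the hepatocyte sum, with -0.52 and -0.60. The cholangiocyte sum was mostly Spp1, and its markers did not move together. Tspan8 and Ggt1 were higher in KO libraries with both hydrogels, and Epcam, Krt7 and Muc1 with the stiff one, all at low levels. Krt19 was at 2.13 CPM in WT soft, 20.57 CPM in WT stiff, 0.64 CPM in KO soft and 0.70 CPM in KO stiff libraries on average. The hepatocyte sum was mostly Alb (81923 and 86595 CPM in WT soft and WT stiff against 54977 and 54678 CPM in KO soft and KO stiff libraries on average), and its markers did not move together. Hnf4a, a transcription factor of hepatocytes, was at 189.2 CPM in WT stiff and 425.6 CPM in KO stiff libraries on average, and Apoa1, Fgb and Ttr were also higher in the latter. Trf (12651 CPM in WT stiff and 7533 CPM in KO stiff libraries on average), Serpina1c and Cps1 were lower there, as was Alb. On the soft hydrogel, Hnf4a and Ttr were higher in KO than in WT libraries, and the rest of the list, with Apoa1 and Fgb, was lower. The part of these markers in the lower levels of Amotl2, Wwc1, Lats2 and Stk4 was not tested. Lats1 (0.20, adjusted p = 0.00839) stayed under the minimum fold, and Sav1 (0.17), Stk3 (-0.04) and Nf2 (-0.07) did not pass.

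**Figure D3:**
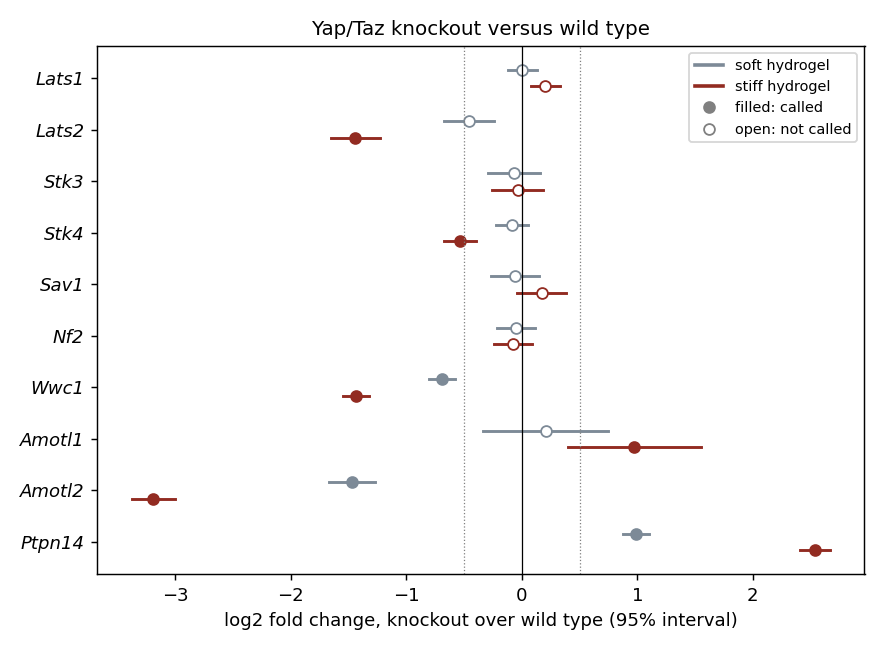
Log2 fold change of KO over WT for each gene on the soft and the stiff hydrogel, with 95% intervals from edgeR, where filled points were called and dotted lines mark the minimum fold of 0.5. Amotl2 (-1.47 and -3.19), Wwc1 (-0.69 and -1.44) and Ptpn14 (0.99 and 2.54) were called on both hydrogels. Lats2, Stk4 and Amotl1 were called on the stiff and not on the soft one, and the difference between the hydrogels, the interaction term, was called for Lats2 and not for Stk4 or Amotl1.

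Levels of different genes were compared per length, in FPKM (CPM divided by the deposited gene length in kilobases). Wwc1 had the highest level of the 10 genes in every group, with 18.9 ± 0.049 FPKM in WT soft, 32.4 ± 0.847 in WT stiff, 11.7 ± 0.371 in KO soft and 11.96 ± 0.535 in KO stiff cells (SD, n = 2). Amotl1 had the lowest level in every group, between 0.176 and 0.348 FPKM on average. The places of Amotl2 and Ptpn14 in the order changed with the group. Amotl2 was 4th in WT soft (5.32 ± 0.175 FPKM) and 2nd in WT stiff cells (18.6 ± 0.105 FPKM), and 8th in both KO groups (1.91 ± 0.181 and 2.03 ± 0.356 FPKM). Ptpn14 was 6th in WT soft (4.004 ± 0.140 FPKM) and 9th in WT stiff cells (1.43 ± 0.056 FPKM), and 3rd in KO soft (7.93 ± 0.044 FPKM) and 2nd in KO stiff cells (8.32 ± 0.084 FPKM).

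Neighbours in this order were apart by more than the range of their libraries in 31 of 36 cases. The exceptions were Lats1 and Stk4 in WT soft, Stk3 and Sav1 in WT stiff, Ptpn14 and Stk4 as well as Amotl2 and Lats2 in KO soft, and Ptpn14 and Lats1 in KO stiff cells. Nf2 kept to a narrow band, from 4.12 FPKM in KO soft to 4.40 FPKM in WT stiff cells on average, as did Stk3 (2.74 to 3.06 FPKM) and Sav1 (3.05 to 3.56 FPKM).

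**Figure D4:**
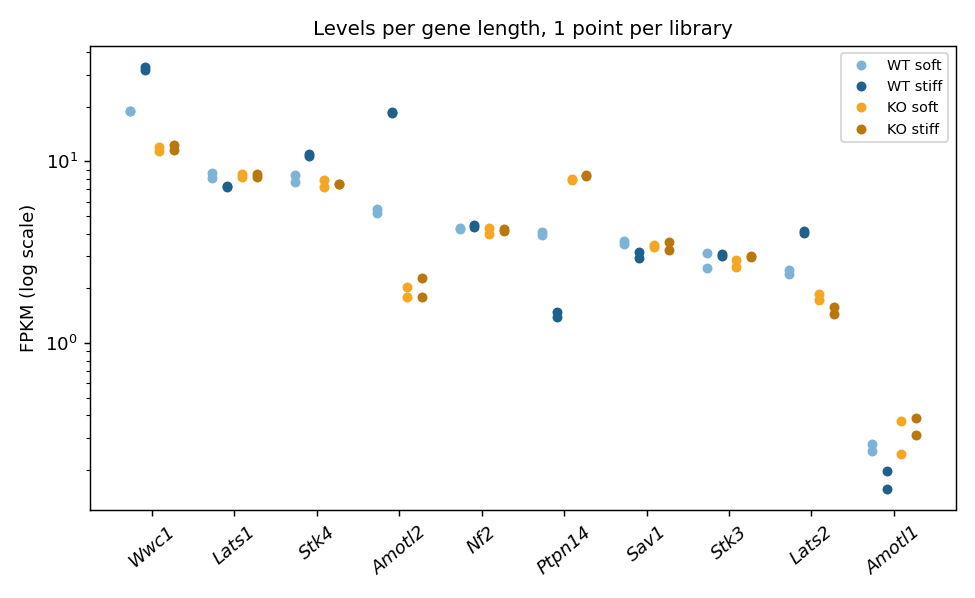
Level of each gene per length in FPKM (log axis), with 1 point per library coloured by group and genes ordered by their mean in WT soft cells. Wwc1 stood at the top in each group and Amotl1 at the bottom, and Amotl2 and Ptpn14 had the widest spread between groups.

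The share of each gene within the paralog pairs was followed as a description, with no test. The levels of Lats2 and Stk4 are uncertain for the reasons given above, and so are the shares in their pairs. Lats2 made up 22.6% and 22.8% of the summed FPKM of Lats1 and Lats2 in the WT soft libraries, 36.3% and 36.1% in WT stiff, 16.8% and 18.4% in KO soft and 15.0% and 15.7% in KO stiff libraries. The sum itself lay between 9.62 and 11.4 FPKM in all libraries. Amotl2 made up 95.4% and 95.2% of the summed FPKM of Amotl1 and Amotl2 in WT soft, 99.0% and 99.2% in WT stiff, 89.3% and 82.8% in KO soft and 85.5% and 85.2% in KO stiff libraries. Here the sum followed Amotl2, from 2.09 FPKM in a KO stiff library to 18.9 FPKM in a WT stiff one. For the MST kinases, the share of Stk3 was 28.8% and 23.6% in WT soft, 22.0% in both WT stiff, 26.5% and 26.6% in KO soft and 28.7% and 28.4% in KO stiff libraries. Both WT stiff libraries had the lowest share, and the WT soft libraries spanned most of the range of the others.

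The genes most like Amotl2 and Ptpn14 were sought among 10027 tested genes with a mean of at least 100 counts, by Pearson correlation of log2 CPM over the 8 libraries. These libraries form 4 groups of 2, so the values describe a shared order of the groups. For Amotl2 they were Rin1, Actg1, Parp12 and Parp14 (r between 0.997 and 0.998). Actg1 encodes cytoplasmic gamma-actin and Rin1 a regulator of RAB5, and their log2 fold changes on the stiff hydrogel in WT cells were 0.59 and 0.85. For Ptpn14 they included Mknk1, Creg1 and Serpina11 (each r = 0.999). Mknk1 encodes a kinase of the translation factor eIF4E, and its log2 fold change on the stiff hydrogel in WT cells was -0.92.

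The rest of the pathway was followed in a list of 51 other Hippo genes, of which 48 were tested. Map4k1, Dchs2 and Rassf2 had too few counts. In WT cells, 9 of the 48 (18.75%) changed between the hydrogels, which is near the 19.3% of all genes given above. Of these, 7 rose and 2 fell, beside 10.0% of all genes called higher and 9.26% called lower. The median log2 fold change of the 48 was 0.05, against -0.01 over all genes tested. The median of its size was 0.15 against 0.27, although the share called was near that of all genes. By the adjusted p alone 20 of the 48 passed, beside 41.0% of all genes. Ajuba, a LIM protein that restrains LATS, rose the most (log2 fold change 1.26, standard error 0.062), followed by Frmd6, a FERM-domain protein (1.05, standard error 0.070). Map4k4, a kinase that can phosphorylate LATS in place of MST, rose by 0.79, and Rassf5, a binding partner of the MST kinases, by 0.74. The paralogs of members, Wwc2 (0.63) and Ptpn21 (0.53), and the polarity gene Crb3 (0.51) also rose. Ptpn21 thus went up where its paralog Ptpn14 went down. The atypical cadherin Fat1 (-0.73) and Rassf6 (-0.71) fell.

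In KO cells 0 of the 48 genes were called between the hydrogels by edgeR, beside only 0.0210% of all genes tested. At an unadjusted p under 0.05 there were 7, and DESeq2 called 0 as well. Their KO log2 fold changes ran from -0.12 to 0.69. The interaction term was called for 7 of the 48, near the share of 16.8% among all genes tested. It was negative for Ajuba (-1.30), Frmd6 (-1.08), Map4k4 (-0.85) and Wwc2 (-0.64), and positive for Fat1 (0.85), Rassf6 (0.69) and Dchs1 (1.19). Dchs1, an atypical cadherin, was near the threshold (standard error 0.437, adjusted p = 0.0490). Against WT, 6 of the 48 genes were called in KO cells on the soft hydrogel, all lower, beside 4.65% of all genes called lower and 6.67% called in either direction. On the stiff hydrogel 14 were called, 5 higher and 9 lower, which is near the 28.7% of all genes. Ajuba, Frmd6, Wwc2, Ptpn21, Rassf5 and Rassf1 were lower in KO cells on both hydrogels, with log2 fold changes from -0.51 to -1.502 on the soft and from -0.77 to -2.80 on the stiff one.

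**Figure D5:**
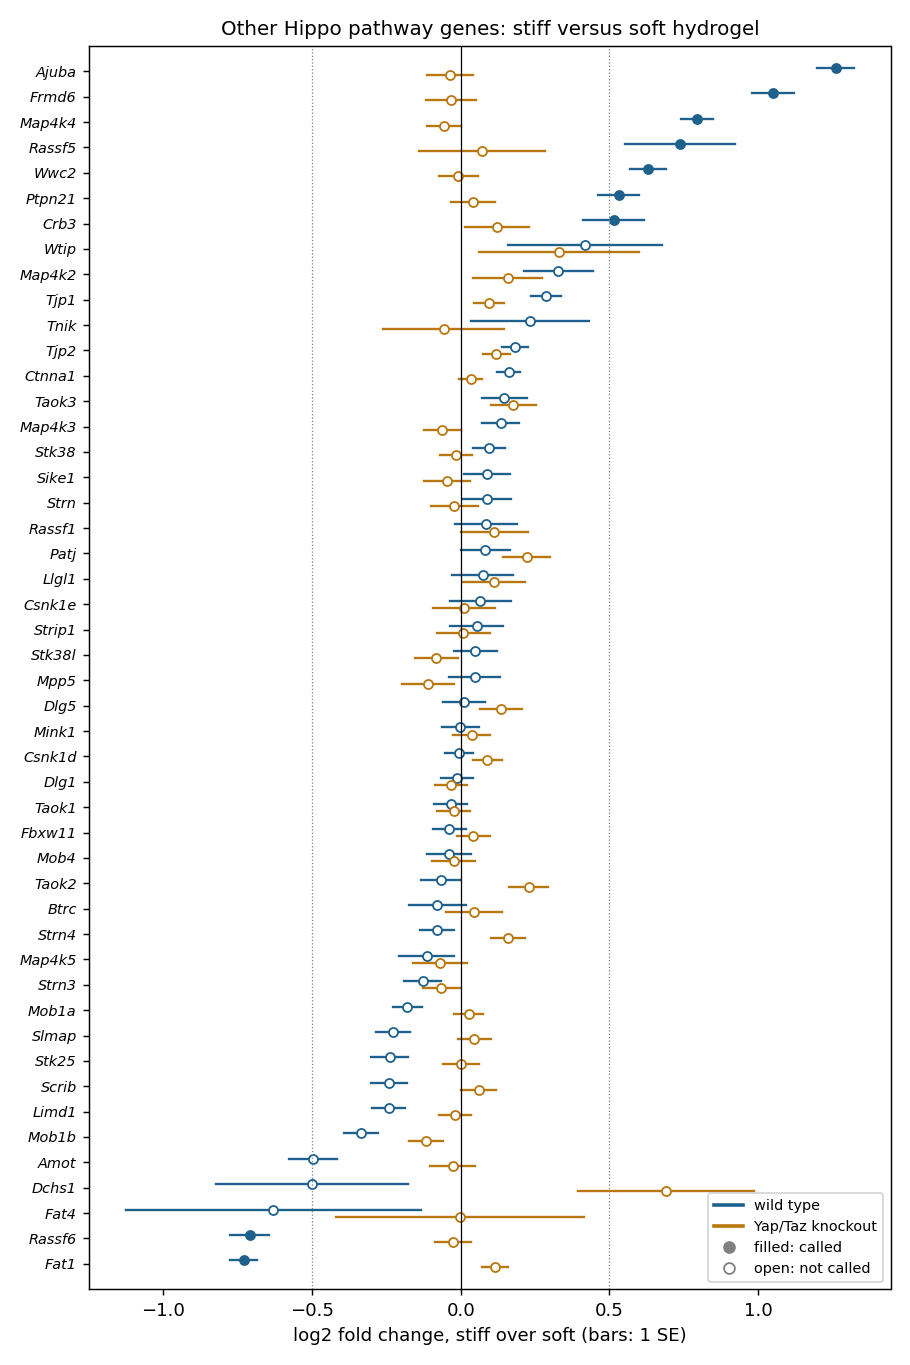
Log2 fold change of stiff over soft in WT and KO hepatocytes for the 48 other Hippo genes tested, ordered by the WT value, with bars of 1 standard error and filled points for called values. The 9 called values are all from WT cells, from Fat1 at -0.73 to Ajuba at 1.26, and the KO value farthest from 0 is that of Dchs1 at 0.69, which was not called.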

How the data were processed

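RNA was measured in 8 libraries of mouse primary hepatocytes, 2 in each of 4 groups taken from the labels. The authors mapped the read pairs using HISAT2 (2.0.5, per the submitters' processing notes), counted them per gene using featureCounts, and deposited raw counts for 56748 genes without normalization. Reads that match several genes can be split or dropped by such counting, and the rules for these and for strand are not given in the sources used here. The labels list the build mm9, and the annotation release is not given in the sources used here. Gene positions of the table differ from the GRCm38 annotation and are printed as deposited, and the sequences are on GRCm38.p6. Every column of the table belonged to a sample of the series.

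The analysis of these counts used edgeR 4.0.16 in R 4.3.3 (filterByExpr by group, TMM scaling, glmQLFit on all 8 libraries with a term per group, 4 residual degrees of freedom). The contrasts were tested with glmQLFTest, adjusted over 14279 genes by the Benjamini-Hochberg method, and called where the adjusted p was below 0.05 with a log2 fold change beyond 0.5 in size. The estimated common biological coefficient of variation came to 0.0542. Log2 CPM used a prior count of 2. CPM in the text were computed here from the deposited counts and the TMM-scaled library totals, and FPKM divide these by the deposited gene length in kilobases. Sequence shared between genes was measured in windows of 64 bases of each longest GENCODE transcript. Figures were drawn with matplotlib 3.10.9. The steps were tested on simulated data.

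Alternatives were DESeq2 1.42.0, other scalings and filters, no minimum fold, a term for the replicate number, robust estimation, fits of the 4 libraries compared, and leaving out every library in turn. The 10 genes, the gene lists and the tests were chosen with earlier results of these data known. The text names the 10 genes, Yap1 and Wwtr1, the other Hippo genes called in the WT comparison or the interaction, and the 4 genes most like the members with the largest rise and fall, of which 1 is not reported here. Rassf1, the marker genes and the 3 untested genes were named after their values were seen.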

Additional observations from a re-analysis of the deposited data

Results flagged for a closer look

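The stiffness effect of 4 genes differed between the genotypes by the test of the difference itself (the interaction term in edgeR, KO log2 fold change minus WT log2 fold change, adjusted over all genes tested). The difference was -1.72 for Amotl2, -0.99 for Lats2, -0.75 for Wwc1 and 1.55 for Ptpn14. All 4 differences were called under each alternative run, with each library left out in turn included. Groups of 2 libraries are too small for a test of single libraries that stand apart.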

How the results depend on the processing

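Of 890 values of the 10 genes' log2 fold changes under an alternative, 854 kept their direction and their side of the thresholds, 24 reversed, 9 passed where the value as reported had not and 3 no longer passed. No called value reversed. The number of the 10 genes called stayed between 4 and 6 for WT stiffness, at 0 for KO stiffness, between 4 and 5 for the interaction, between 3 and 4 for KO against WT on the soft hydrogel, and between 5 and 7 for the same on the stiff one. Without a minimum fold, the other Hippo genes called, of 48 tested, rose from 9 to 20 for WT stiffness and from 7 to 16 for the interaction. For KO against WT they rose from 6 to 12 when soft and from 14 to 26 when stiff. In the same sequence, 41.0%, 29.4%, 18.4% and 51.1% of all genes passed the adjusted p alone. Stk4 on the stiff hydrogel, KO against WT, no longer passed with scaling by library size only (-0.48).

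The values that reversed were small and not called. They were Sav1 for KO stiffness without a filter on low counts (-0.00383) and, with scaling by library size only, Nf2 for KO against WT when soft (0.00607) and Stk3 when stiff (0.0215). With each library left out in turn, WT stiffness ran from -0.0189 to 0.24 for Stk3. KO stiffness ran from -0.0470 to 0.00968 for Lats1, -0.0860 to 0.0443 for Stk4, -0.0736 to 0.0748 for Sav1, -0.0397 to 0.0734 for Nf2, -0.0136 to 0.0726 for Wwc1, -0.10 to 0.51 for Amotl1 and -0.11 to 0.25 for Amotl2. The interaction ran from -0.13 to 0.13 for Stk3 and from -0.0874 to 0.0243 for Nf2. KO against WT on the soft hydrogel ran from -0.0368 to 0.0595 for Lats1, -0.18 to 0.0812 for Stk3, -0.11 to 0.00732 for Nf2 and -0.11 to 0.49 for Amotl1. Where a group was left with 1 library, that library was assumed to vary like the other groups.

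Deviations of same-numbered libraries from their group means had correlations between -0.10 and 0.04. With 2 libraries a group, these values cannot show whether same-numbered libraries shared a mouse or a cell isolation, so a pairing is not known. With a replicate block in the fit, 4 of the 10 genes were called for WT stiffness, 0 for KO stiffness, 4 for the interaction, 3 for KO against WT when soft and 6 when stiff, as without it. For the other Hippo genes the block, added after seeing the data, gave 9, 0, 6, 6 and 15. For Amotl1, with 31 to 83 counts per library, depth limits the precision.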
